A study of Mus musculus with 8 samples.

Results

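Androgen-responsive genes of the mouse proximal tubule are the subject here, a set of 9: Kap, Cyp7b1, Cyp2j13, Acsm3, Slco1a1, Slc7a13, Slc22a30, Odc1 and Atp11a. They were taken by gene symbol from a table of 23386 genes, all 9 were found, and all 9 were among the 14022 genes expressed highly enough to be tested. The libraries came from mRNA of whole left kidneys of mice aged 49 weeks, 4 Ctrp1-/- (KO) and 4 wild-type (WT) animals, 1 library each. The KO allele lacks part of exon 4 of C1qtnf1, the gene of the secreted protein CTRP1, in every cell of the body. It was made in 129S5 embryonic stem cells and backcrossed to C57BL/6J, and the WT animals were littermates from crosses of heterozygotes. The labels give no sex per library.

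Circulating testosterone enters proximal tubule cells, where it acts, directly or as its reduced form dihydrotestosterone, on transcription in the nucleus. The mouse kidney is strongly sexually dimorphic, and in males androgen raises a set of transcripts in the proximal tubule, above all in its straight part. Kap and Odc1 are the classical examples, and both have long been used as readouts of androgen action in this organ. The set crosses several functions: a secreted or stored protein of little known role (Kap), enzymes of steroid, fatty acid and polyamine metabolism (Cyp7b1, Cyp2j13, Acsm3, Odc1), transporters of organic anions and amino acids (Slco1a1, Slc22a30, Slc7a13) and a phospholipid flippase (Atp11a).

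Start-site sequence was at hand for 7 of the 9 genes (all but Cyp7b1 and Slc7a13), from RefSeq on GRCm38.p6, as windows of 300 bases that run 250 bases before to 50 bases after the start. The letters of the androgen response element half-site, AGAACA, were searched on both strands and occurred in 19.0% of 32851 such windows of the mouse genome and in 0 of the 7 genes. The full palindrome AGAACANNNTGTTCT, which contains that half-site, occurred in 0.00913% of windows and in 0 of the 7. These letters are thus not in these windows, which says nothing of sites elsewhere. The TATA box letters TATAAA occurred in 13.6% of windows and in 2 of the 7 genes. They are shown because they fall in Kap, the most abundant of the 9, and in Slco1a1, which had the largest fold difference of the 9. Each stretch is given 5′ to 3′ on the gene's strand with the match in capitals, which for Slco1a1 is the reverse complement. The Kap match begins at position -31 from the start (chr6:133853681-133853710, minus strand), and the Slco1a1 matches begin at -209 and -99 (chr6:141947154-141947183 and chr6:141947044-141947073, minus strand).
Kap: gagtacaggatgTATAAAagcccaggagga
Slco1a1, distal: gtgctggacagtTTTATAtgaatttgacat
Slco1a1, proximal: gcattttctttaTTTATAattgacatgtga

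Levels are given as scaled FPKM, the deposited FPKM (fragments normalised to gene length and library size) divided by a factor of 0.978 to 1.03 per library. Libraries held 15027400 to 19256378 counted reads. C1qtnf1 had 7, 29, 10 and 13 reads in KO libraries, against 155, 123, 129 and 194 in WT libraries, with a log2 fold change of -2.32 (SE 0.18, limma adjusted p = 0.000768), as the genotype labels say. The counted length reaches beyond the deleted part. All 8 libraries held transcripts of Uty, Kdm5d and Ddx3y, which are Y-linked, from 2.58 upward, while Xist was at most 0.017, so the libraries have the pattern of males. The Y-linked gene Eif2s3y had 13.1, 2.22, 8.64 and 14.5 in KO libraries, against 11.5, 11.7, 14.3 and 14.2 in WT libraries, so KO replicate 2 was low for it. WT replicate 3 was highest in the injury marker Havcr1 (Kim-1), with 0.57, 0.57, 0.48 and 0.66 in KO libraries, against 0.53, 1.89, 4.73 and 0.52 in WT libraries. WT replicate 2 was the next highest. The fold changes of the 9 genes are also given without WT replicate 3, the most extreme library. The same holds for those of the other named genes with a sizeable difference that this library moves most. Tests of single genes are limma fits of KO over WT on log2(scaled FPKM + 0.5), adjusted by Benjamini-Hochberg over all 14022 genes, and fold changes stand on that scale. The p-values measure the spread between these animals, which the labels call biological replicates.

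All 9 genes had a higher mean in KO than in WT kidneys, by log2 fold changes of 0.41 to 1.61, and none passed the adjusted threshold. With limma 0 of 9 were called, where 0.0285% of all tested genes were called higher in KO and 0.0499% in either direction, and limma's voom on the reads also called 0. The adjusted p-values lay between 0.164 and 0.284. At an unadjusted p under 0.05, 9 of 9 were higher in KO, against 7.18% of all tested genes. Every KO library stood above every WT library for 6 of 9, against 4.34% of all tested genes. Because the 9 genes were chosen with earlier results of these data known, these shares are descriptions and no test of the set. The median log2 fold change was 0.63 over the 9 genes and -0.0012 over all genes tested. In whole kidneys more cells of a type and more RNA per cell cannot be told apart.

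Kap, the kidney androgen-regulated protein gene (ENSMUSG00000032758, chr6:133849855-133853667, minus strand, mm10, 608 bases counted), was among the 4 most abundant genes in every library. Its level was 29250, 19690, 20228 and 22449 scaled FPKM in KO libraries, against 18532, 16414, 12492 and 20420 in WT libraries. The groups overlapped: 2 KO libraries stood above the highest WT library and the other two lay just under it. Kap averaged 22904 ± 4396 in KO and 16964 ± 3401 in WT kidneys (SD, n = 4 each), a log2 fold change of 0.44 (SE 0.17, limma adjusted p = 0.281). It took 1.74%, 1.24%, 1.254% and 1.35% of the counted reads in KO libraries, against 1.12%, 1.00%, 0.766% and 1.23% in WT libraries. Under quantile normalization, which forces the highest values to be alike, its log2 fold change was 0.19.

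The enzymes of lipid and steroid metabolism covered a wide range of differences. Cyp7b1 (ENSMUSG00000039519, chr3:18071950-18243338, minus strand) encodes the oxysterol 7-alpha-hydroxylase, which also hydroxylates steroids such as dehydroepiandrosterone. It had 68.8, 58.4, 56.9 and 50.3 scaled FPKM in KO libraries, against 35.3, 45.7, 21.1 and 54.2 in WT libraries. KO libraries clustered closely and WT libraries were scattered, so that 3 KO libraries stood above the highest WT library and 1 below it. The means were 58.6 ± 7.68 in KO and 39.1 ± 14.3 in WT kidneys (SD, n = 4 each), a log2 fold change of 0.65 (SE 0.24, limma adjusted p = 0.263).

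Cyp2j13 (ENSMUSG00000028571, chr4:96027534-96077546, minus strand) belongs to a cytochrome P450 subfamily that oxidises fatty acids such as arachidonic acid. It had 97.4, 83.9, 81.6 and 86.4 scaled FPKM in KO libraries, against 68.3, 46.5, 52.1 and 75.9 in WT libraries. Every KO library was higher than every WT library. The means were 87.3 ± 7.0 in KO and 60.7 ± 13.7 in WT kidneys (SD, n = 4 each), a log2 fold change of 0.55 (SE 0.14, limma adjusted p = 0.170).

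Acsm3 (ENSMUSG00000030935, chr7:119760923-119787513, plus strand) encodes a mitochondrial synthetase that joins medium-chain fatty acids to coenzyme A. It had 77.1, 34.7, 33.0 and 28.2 scaled FPKM in KO libraries, against 25.2, 17.1, 5.62 and 31.9 in WT libraries. It varied most of the 9, its highest library being 13.7 times its lowest, and the groups overlapped. The means were 43.2 ± 22.7 in KO and 20.0 ± 11.3 in WT kidneys (SD, n = 4 each), a log2 fold change of 1.22 (SE 0.49, limma adjusted p = 0.284). Its lowest library still held 297 reads (exact Poisson 95% interval 264.2 to 332.8, counting error only).

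The transporters included the gene with the largest fold difference. Slco1a1 (ENSMUSG00000041698, chr6:141907282-141946962, minus strand) encodes OATP1A1, an apical carrier of organic anions that include steroid conjugates. It had 98.5, 63.4, 65.2 and 59.3 scaled FPKM in KO libraries, against 39.1, 19.8, 7.84 and 41.8 in WT libraries. No KO library fell into the WT range, and the highest library was 12.6 times the lowest. The means were 71.6 ± 18.1 in KO and 27.1 ± 16.2 in WT kidneys (SD, n = 4 each), a log2 fold change of 1.61 (SE 0.45, limma adjusted p = 0.182). Without WT replicate 3 the log2 fold change was 1.12, with an adjusted p of 0.0781.

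Slc7a13 (ENSMUSG00000041052, chr4:19818725-19842218, plus strand) encodes AGT1, an apical carrier of aspartate, glutamate and cystine in the straight tubule that pairs with the product of Slc3a1. It had 563, 480, 509 and 496 scaled FPKM in KO libraries, against 439, 398, 285 and 437 in WT libraries. The groups were apart, with 1 WT library far below the other three. The means were 512 ± 36.1 in KO and 390 ± 72.2 in WT kidneys (SD, n = 4 each), a log2 fold change of 0.41 (SE 0.13, limma adjusted p = 0.213). Slc3a1 itself had a smaller difference, with 146 ± 16.3 in KO and 143 ± 6.51 in WT kidneys (log2 fold change 0.03, limma adjusted p = 0.891).

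Slc22a30 (ENSMUSG00000052562, chr19:8335371-8405111, minus strand) belongs to the organic anion transporter family. It had 90.6, 72.3, 70.7 and 70.9 scaled FPKM in KO libraries, against 60.2, 49.9, 51.1 and 68.7 in WT libraries. The groups did not overlap, but the lowest KO and highest WT libraries nearly met. The means were 76.1 ± 9.70 in KO and 57.5 ± 8.76 in WT kidneys (SD, n = 4 each), a log2 fold change of 0.41 (SE 0.11, limma adjusted p = 0.187).

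Odc1 (ENSMUSG00000011179, chr12:17544873-17551502, plus strand) encodes ornithine decarboxylase, which makes putrescine in the first step of polyamine synthesis. It had 551, 413, 386 and 348 scaled FPKM in KO libraries, against 319, 206, 216 and 311 in WT libraries. Every KO library was above every WT library. The means were 425 ± 88.6 in KO and 263 ± 60.3 in WT kidneys (SD, n = 4 each), a log2 fold change of 0.70 (SE 0.18). Its limma adjusted p of 0.164 was the smallest of the 9.

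Atp11a (ENSMUSG00000031441, chr8:12757014-12868728, plus strand) encodes a P4-type ATPase that moves aminophospholipids to the inner leaflet of the plasma membrane. It had 251, 243, 190 and 207 scaled FPKM in KO libraries, against 176, 142, 92.0 and 181 in WT libraries. Every KO library was above every WT library, though the lowest KO and the highest WT library were close. The means were 223 ± 28.9 in KO and 148 ± 41.0 in WT kidneys (SD, n = 4 each), a log2 fold change of 0.63 (SE 0.20, limma adjusted p = 0.213).

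By exact two-sided permutation of the libraries, the 6 genes without overlap each reached p = 0.0286, the smallest that 4 against 4 allows (70 arrangements). The permutation p was 0.0857 for Kap and 0.0571 for Cyp7b1 and Acsm3. These single-gene values are not adjusted for the number of genes. Without WT replicate 3 the log2 fold changes were 0.30 for Kap, 0.39 for Cyp7b1, 0.48 for Cyp2j13, 0.72 for Acsm3, 0.27 for Slc7a13, 0.35 for Slc22a30, 0.61 for Odc1 and 0.42 for Atp11a, all still above 0.

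**Figure D1:**
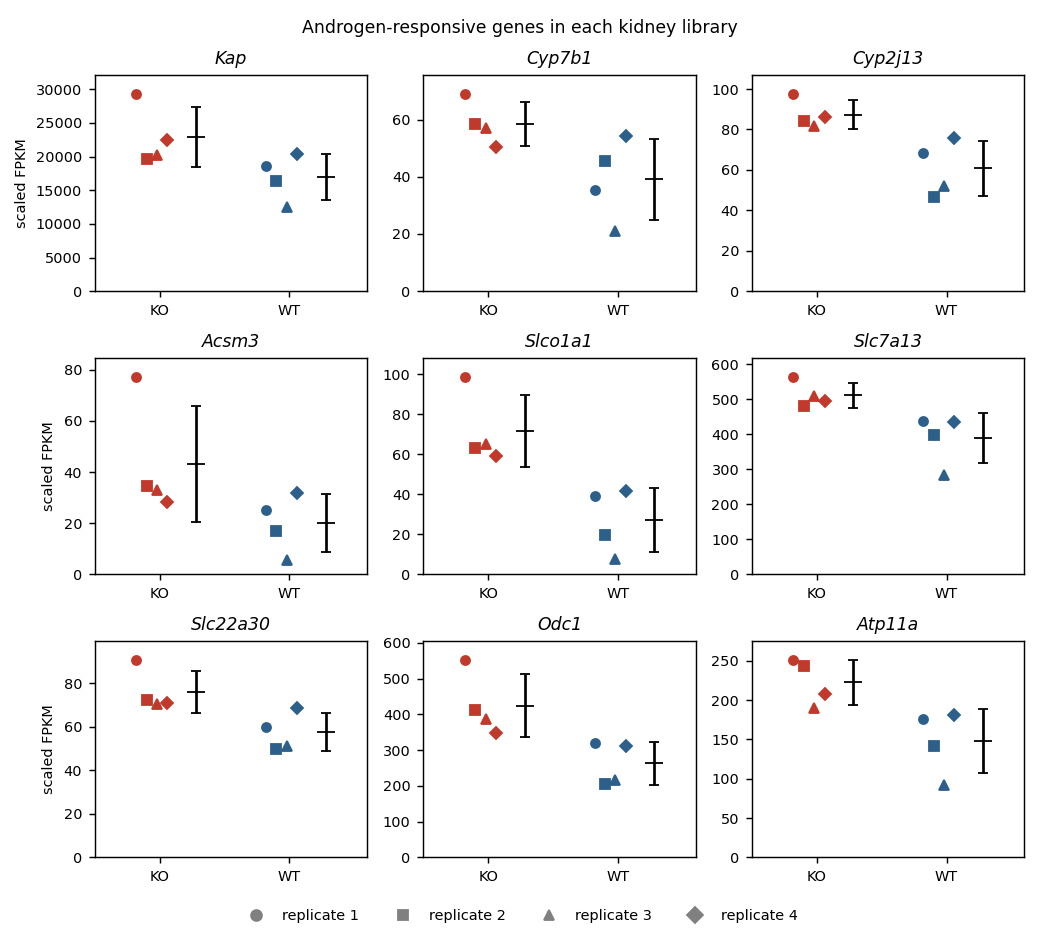
Each panel plots 1 gene in scaled FPKM on an axis from 0, with a point per library (KO left, WT right, the symbol giving the replicate) and the mean ± SD of 4 libraries as a bar beside them. KO replicate 1 is the highest KO point in all 9 panels, and the KO and WT points overlap in Kap, Cyp7b1 and Acsm3.

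Levels per length placed the genes in the order Kap, Slc7a13, Odc1, Atp11a, Cyp2j13, Slc22a30, Cyp7b1, Slco1a1 and Acsm3 by the WT mean. Neighbours in this order whose library ranges overlapped in both genotypes were Slc7a13 and Odc1, Cyp2j13 and Slc22a30, Cyp7b1 and Slco1a1, and Slco1a1 and Acsm3. Slc22a30 and Cyp7b1 overlapped in WT libraries only. Cyp7b1 exceeded Slco1a1 in 3 of 8 libraries, so that pair has no fixed order.

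The 9 genes varied more between animals of 1 genotype than most genes did. The median SD of log2 levels was 0.190 in KO and 0.335 in WT libraries over the 9 genes, against 0.0882 in KO and 0.0991 in WT libraries over the 8161 genes with a mean of at least 5. The SD was smaller in KO than in WT libraries for 9 of 9 genes, and the WT SD was the larger for 56.2% of those 8161 genes. KO replicate 1 was the highest KO library for 9 of 9. WT replicate 3 was the lowest WT library for 6 and WT replicate 2 for the other 3, while WT replicate 4 was the highest for 7 and WT replicate 1 for the other 2.

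Expressed in SD units over the 8 libraries, the mean of the 9 genes was 1.33, 0.53, 0.43 and 0.41 in KO libraries, against -0.20, -0.88, -1.77 and 0.14 in WT libraries. In each KO library all 9 genes were above their own mean. Among WT libraries this held for 7 genes in replicate 4 and for 0 in the other three.

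**Figure D2:**
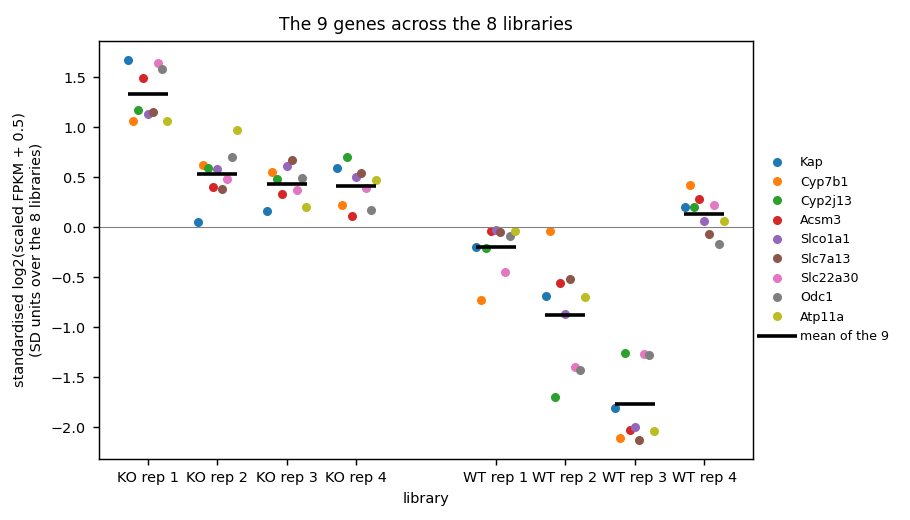
Points give log2(scaled FPKM + 0.5) of each gene in SD units from its mean over the 8 libraries (vertical axis), with KO libraries left and WT libraries right, and black bars give the mean of the 9 genes. The bar stands highest in KO replicate 1 (1.33) and lowest in WT replicate 3 (-1.77).

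Spearman's rho between a gene's GC content and its deviation in a library was -0.392, -0.069, -0.115 and -0.358 in KO libraries, against 0.462, 0.392, -0.240 and 0.286 in WT libraries. It was negative in the KO libraries and in WT replicate 3, where the 9 genes were lowest on average, and positive in the other three WT libraries. The 9 genes have a median GC content of 42.5%, against 49.9% for all genes tested, while Odc1 and Atp11a have 52.4% and 52.0%. With trends in GC content and length removed from each library the median log2 fold change of the 9 genes was 0.59, and the part of GC content in the differences was not otherwise tested.

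Levels of the 9 genes moved together across the libraries. All 36 pairs were positively correlated over the 8 libraries, with a median Pearson r of 0.904 (range 0.711 to 0.986) and a median Spearman's rho of 0.893. By exact two-sided permutation of the pairings, adjusted over the 36 pairs, Pearson's r passed 0.05 for 36 pairs (highest adjusted p = 0.0446) and Spearman's rho for 35. The exception was Kap with Odc1 (rho 0.69, exact permutation adjusted p = 0.0694). The genes were chosen with earlier results of these data known, and a shared genotype difference raises every pair over the 8 libraries. These p-values therefore describe the pairs and are no test of the set. Leaving out the 2 libraries farthest from the median of the first gene gave a median r of 0.871, and all 36 stayed positive. The lowest was then Kap with Cyp7b1, at 0.448. Without WT replicate 3 the median was 0.892. For scale, the 9 genes paired with 8129 other genes (mean log2 level at or above that of 5 scaled FPKM) gave a median r of 0.0177 over 73161 pairs, and 0.897% of those pairs lay above the median of the 9.

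The genes also moved together within the genotypes. On deviations from the genotype means all 36 pairs remained positive, with a median r of 0.819 (0.418 to 0.969), against a median of 0.126 for the 73161 pairs, of which 3.78% lay higher than the median of the 9. The median r was 0.889 within the 4 KO libraries and 0.818 within the 4 WT libraries, each with 36 positive pairs, which are descriptions over 4 points. The closest pair was the transporters Slco1a1 and Slc7a13 (r 0.986, rho 0.952, exact permutation adjusted p = 0.0022, and 0.969 on deviations). The least close were the cytochromes Cyp7b1 and Cyp2j13 (r 0.711, rho 0.786, and 0.418 on deviations). Acsm3 had the highest median r with the other genes, 0.936, and Cyp2j13 the lowest, 0.860.

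**Figure D3:**
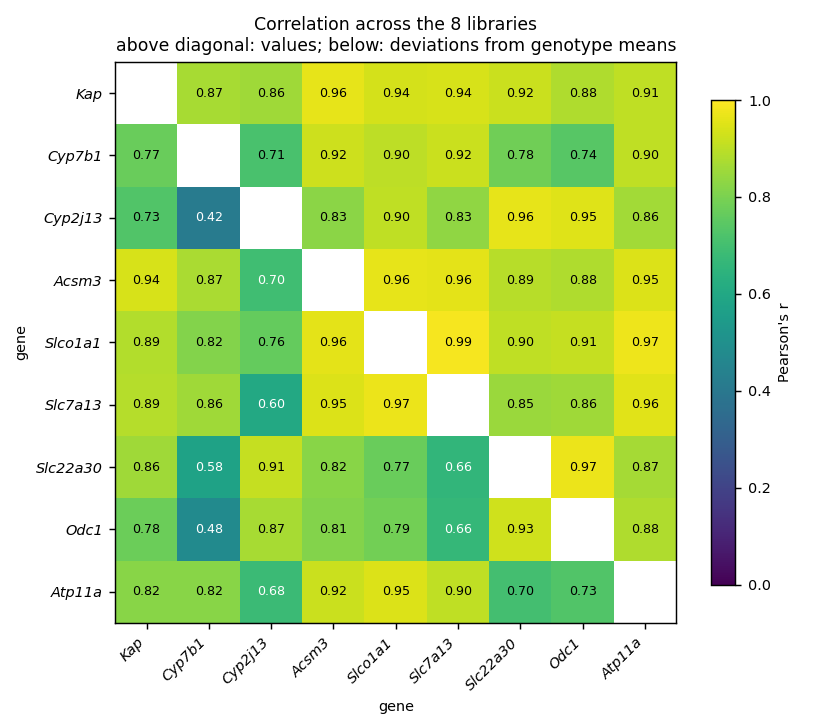
The grid gives Pearson's r for each pair of the 9 genes, as colour from 0 to 1 and as a printed value, over the 8 libraries above the diagonal and on deviations from the genotype means below it. All cells are above 0, the closest pair being Slco1a1 and Slc7a13 (0.986 above the diagonal) and the lowest Cyp7b1 and Cyp2j13 (0.418 below it).

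Other genes also followed the mean of the 9. Of 8152 other genes with a mean of at least 5, 104 had r above 0.9 with the mean standardised level of the 9, and 56 had r below -0.9. The 8 highest were Chst11, a chondroitin sulfotransferase (r 0.987), Idi1 of isoprenoid synthesis (0.983), C1qtnf3 (0.982), the fucosidase Fuca2 (0.980), the translation factor Eif4g3 (0.978), Pzp, an alpha-2-macroglobulin relative (0.977), the phospholipase Gpld1 (0.977) and the coat protein gene Copg2 (0.976). Without the 2 most distant libraries, WT replicates 2 and 3, their r lay between 0.894 (Eif4g3) and 0.956 (Pzp). They were chosen as the highest of 8152, so no p is given. C1qtnf3 encodes CTRP3, a relative of the deleted CTRP1, and averaged 60.4 ± 9.03 scaled FPKM in KO and 42.0 ± 9.56 in WT kidneys (SD, n = 4 each; log2 fold change 0.54, limma adjusted p = 0.204). Pzp averaged 30.3 ± 4.99 in KO and 17.9 ± 8.04 in WT kidneys (SD, n = 4 each; log2 fold change 0.86, limma adjusted p = 0.245, and 0.53 without WT replicate 3).

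On deviations from the genotype means 110 genes had r above 0.9. The 8 highest were Ldhd, the D-lactate dehydrogenase (r 0.995), Scyl3 (0.983), Fuca2 (0.979), Babam1 (0.977), the RNA ligase Rtcb (0.976), the syntaxin Stx5a (0.975), Mfap3l (0.972) and the defensin Defb29 (0.972). Fuca2 was thus the gene named by both measures. Ldhd averaged 324 ± 64.3 scaled FPKM in KO and 274 ± 75.8 in WT kidneys (SD, n = 4 each; log2 fold change 0.27, limma adjusted p = 0.546, and 0.080 without WT replicate 3).

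Among enzymes that make or remove androgens, 10 were tested and 0 passed (median log2 fold change 0.05). Of these, 3 were higher in KO at an unadjusted p under 0.05, against 7.18% of all tested genes. Srd5a2, the steroid 5-alpha-reductase that forms dihydrotestosterone, had 14.7, 8.05, 10.3 and 7.66 scaled FPKM in KO libraries, against 9.21, 4.55, 4.09 and 7.11 in WT libraries. The groups overlapped, and KO replicate 1 was the highest and WT replicate 3 the lowest of the 8, as in most of the 9 genes (log2 fold change 0.68 with an SE of 0.26, limma adjusted p = 0.266). The log2 fold change was 0.46 for Hsd17b11, which oxidises 17-beta-hydroxysteroids (limma adjusted p = 0.245), and 0.42 for Hsd17b2, which inactivates testosterone and oestradiol (limma adjusted p = 0.290). Without WT replicate 3 that of Hsd17b2 was 0.24.

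A list of 12 other genes known to be higher in male kidneys had 0 past the test and 11 with the higher mean in KO. At an unadjusted p under 0.05, 5 of these were higher in KO, against 7.18% of all tested genes. The median log2 fold change was 0.17, against -0.0012 over all genes tested. This list too was chosen with earlier results of these data known. Nudt19, a coenzyme A hydrolase, averaged 310 ± 27.8 scaled FPKM in KO and 235 ± 42.8 in WT kidneys (SD, n = 4 each; log2 fold change 0.41, limma adjusted p = 0.188). Ghr, the growth hormone receptor gene, averaged 182 ± 10.6 in KO and 150 ± 17.2 in WT kidneys without overlap (SD, n = 4 each; log2 fold change 0.28, limma adjusted p = 0.197). The alcohol dehydrogenase gene Adh1 had a log2 fold change of 0.31 (limma adjusted p = 0.263). The largest of the list, named after its values were seen, was the fatty acid hydroxylase Cyp4a12a at 0.70 (limma adjusted p = 0.358), and at 0.39 without WT replicate 3. Its groups overlapped, with 26.3 to 57.9 scaled FPKM in KO libraries, against 12.8 to 43.4 in WT libraries. Cyp4a12b, also named after its values were seen, was the only gene of the list with the lower mean in KO. Its log2 fold change was -0.13 (limma adjusted p = 0.850).

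Genes known to be higher in female kidneys gave no common direction. Of 8 listed, 7 were tested, 0 passed and 3 had the higher mean in KO (median log2 fold change -0.18). Cyp4a14, a fatty acid omega-hydroxylase, had 4.09, 6.63, 11.0 and 14.4 scaled FPKM in KO libraries, against 11.0, 51.9, 135 and 17.2 in WT libraries. It was highest in WT replicate 3, where most of the 9 genes were lowest, and KO replicate 1, where they were highest, had its lowest value (log2 fold change -2.0, SE 0.69, limma adjusted p = 0.239, and -1.35 without WT replicate 3). The organic anion transporter Slc22a19 had a log2 fold change of 0.65 (limma adjusted p = 0.290, and 0.38 without WT replicate 3) and Gm4450 one of -0.18 (limma adjusted p = 0.349). Slc22a7, named after its values were seen, was highest in KO replicate 1 and lowest in WT replicate 3, with 61.1, 16.3, 13.4 and 10.6 in KO libraries, against 13.1, 9.21, 1.68 and 17.7 in WT libraries (log2 fold change 1.23, limma adjusted p = 0.413). Its log2 fold change was 0.57 without WT replicate 3 and 0.69 without KO replicate 1. Prlr, the prolactin receptor gene, and the amino acid carrier Slc7a12, also named after their values were seen, had their lowest value in KO replicate 1. Their log2 fold changes were -0.73 for Prlr (limma adjusted p = 0.382) and -0.36 for Slc7a12 (limma adjusted p = 0.671), and -0.41 and -0.0060 without KO replicate 1.

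**Figure D4:**
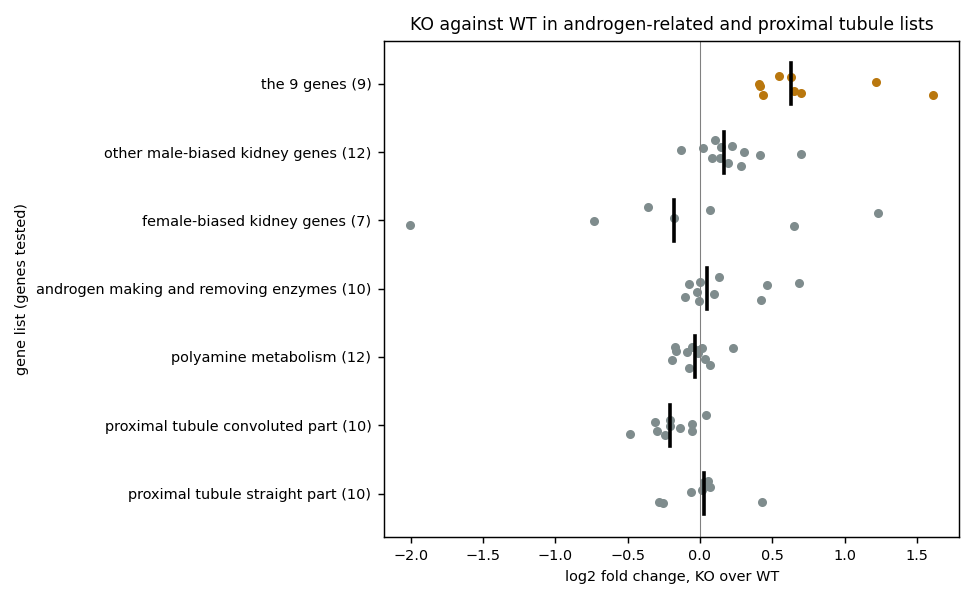
Each point is the log2 fold change of KO over WT of 1 tested gene (horizontal axis), by gene list (vertical axis, genes tested in brackets), and black bars are medians. The 9 genes all lie right of 0 with a median of 0.63, against medians of 0.17 in the other male-biased genes, -0.18 in the female-biased genes and -0.21 in the convoluted tubule markers.

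The other genes of polyamine metabolism had smaller differences than Odc1. Of 12 other genes tested, 0 passed and 4 had the higher mean in KO (median log2 fold change -0.03). At an unadjusted p under 0.05, 1 was higher in KO, against 7.18% of all tested genes. That gene was Azin1, the antizyme inhibitor that protects ornithine decarboxylase from degradation, with 32.3, 28.4, 28.97 and 32.3 scaled FPKM in KO libraries, against 24.1, 25.3, 28.1 and 26.3 in WT libraries. Its groups did not overlap (log2 fold change 0.23 with an SE of 0.07, limma adjusted p = 0.190). Dohh and Dhps, enzymes of hypusine synthesis of which Dhps uses spermidine, had log2 fold changes of -0.19 (limma adjusted p = 0.341) and -0.17 (limma adjusted p = 0.350).

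Close relatives of the 9 genes, grouped by symbol after the files were seen, had smaller differences in most cases. Beside Cyp2j13 (0.55), the log2 fold change was 0.14 for Cyp2j5 and Cyp2j11, 0.03 for Cyp2j6, -0.05 for Cyp2j9 and -0.14 for Cyp2j7. Slco1a6, of the same subfamily as Slco1a1, averaged 78.6 ± 10.8 scaled FPKM in KO and 73.9 ± 8.0 in WT kidneys (SD, n = 4 each; log2 fold change 0.09, limma adjusted p = 0.721). Beside Acsm3 (1.22) the values were 0.22 for Acsm2, -0.00 for Acsm1 and -0.07 for Acsm5. Slc22a28, from the same cluster on chromosome 19, had 0.34 (limma adjusted p = 0.250), close to Slc22a30 (0.41), while Slc22a29 had -0.65 (limma adjusted p = 0.260, and -0.41 without WT replicate 3). Beside Atp11a (0.63) the flippase gene Atp11b had 0.05. Reads shared between such paralogs could be split by the counting, so the levels of Cyp2j, Slco1a, Acsm and Slc22a members are less certain than those of Kap and Odc1. Overlapping or antisense genes had fewer reads than their hosts. Eri2, which overlaps Acsm3, had 787 reads over the 8 libraries and Acsm3 13740, and Gm15347 within Atp11a had 1150 and Atp11a 188374.

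Regulators of tubule gene expression included Maf, a transcription factor gene with 50.3, 52.4, 51.2 and 60.6 scaled FPKM in KO libraries, against 71.4, 74.4, 70.4 and 70.4 in WT libraries. The groups were apart, but Maf missed the threshold (log2 fold change -0.42, SE 0.06, limma adjusted p = 0.0885). Of the 11 regulators tested 0 passed. The repressor Bcl6 had a log2 fold change of 0.99 (limma adjusted p = 0.326).

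Markers of the tubule segments were examined beside the 9 genes. Markers of the convoluted part, where the filtered load is first taken up, had 0 of 10 past the test. Of the 10, 5 were lower in KO at an unadjusted p under 0.05, against 8.26% of all tested genes. Their summed levels were 3611 to 3869 scaled FPKM in KO libraries, against 4208 to 4456 in WT libraries. Most of that sum is Slc34a1, at 2422 ± 98.3 in KO and 2804 ± 159 in WT kidneys (SD, n = 4 each). The log2 fold change of Slc34a1 was -0.21 (limma adjusted p = 0.213), and -0.02 under quantile normalization. The phosphate carrier Slc34a3 (log2 fold change -0.30, limma adjusted p = 0.108), the organic anion carrier Slc22a8 (-0.49, 0.137) and the glucose carrier Slc5a2 (-0.21, 0.155) had lower values in every KO library than in any WT library. Of 10 genes listed as markers of the straight part, 0 passed and 7 had the higher mean in KO, with a median log2 fold change of 0.03. How far each of them is confined to that part was not tested. The summed levels of the 10 were 15079 to 18397 in KO libraries, against 17865 to 19880 in WT libraries. Most of that sum is Gpx3, and the other 9 markers summed to 2384 to 2737 in KO libraries, against 2245 to 2592 in WT libraries. Slc5a8, a lactate carrier, had 0.43 without overlap (limma adjusted p = 0.155), the cystine carrier Slc7a9 had -0.29 (limma adjusted p = 0.217) and the secreted peroxidase Gpx3 -0.25 (limma adjusted p = 0.2796). Both segments' markers were abundant in all libraries, as whole kidney requires. Their part in the differences of the 9 genes was not tested.

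Markers of 8 other kidney cell types (podocytes, thick ascending limb, distal convoluted tubule, principal and intercalated cells, endothelium, stroma and leukocytes) gave 45 tested genes, of which 0 passed, with 0 higher and 5 lower in KO at an unadjusted p under 0.05, to be read against 8.26% of all tested genes. Their list medians lay between -0.19 and 0.12. Intercalated cell markers were 3 of those 5, with summed levels of 84.8 to 97.9 in KO libraries, against 102 to 109 in WT libraries. Adrenal cortex markers, looked at because that gland makes steroids, were measured for 4 of 7 genes and summed to 1.24 to 1.57 in KO libraries and 1.26 to 1.61 in WT libraries. Fat markers summed to 0.228 to 1.65 in KO libraries and 0.105 to 4.62 in WT libraries, and injury markers to 348 to 453 in KO libraries and 332 to 708 in WT libraries, the highest of both being WT replicate 3. The next highest injury sum was that of WT replicate 2, at 466. The fat sum of WT replicate 2 was the lowest of all libraries, at 0.105. The part of injury in the low values of WT replicates 2 and 3, and of fat in those of WT replicate 3, was not tested.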

How the data were processed

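RNA of 8 kidneys (4 KO, 4 WT) was extracted with Trizol and selected with poly-T beads, per the labels' protocols. The authors deposited FPKM per gene on mm10 with gene lengths. The submitters' processing notes name the authors' tools (DESeq2, HTSeq 0.6.1, STAR 2.5, CASAVA) without roles; annotation release and strandedness are not given in the sources used here. All deposited FPKM values gave whole reads (100% within 0.01). FPKM were divided by median-ratio factors, genes with a mean of at least 0.5 were kept, and log2(value + 0.5) was modelled in R 4.3.3 by limma 3.58.1 (trend, genotype only), which was tested on simulated data. A gene was called at an adjusted p under 0.05. Correlations used log2 values and exact permutation (scipy 1.17.1). Fold changes of low genes are understated. Named were the 9 genes, the 3 genes of smallest p in each list (for other cell types the list's counts and sums only), the 8 genes most like the 9 by each measure and checks of the libraries; others are marked, and some that this rule names are not reported here. Members and lists were chosen with earlier results of these data known. Alternatives were other pseudocounts, filters, scalings and limma settings, GC and length trends removed, and each library left out; voom was added after seeing the data.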

Additional observations from a re-analysis of the deposited data

Results flagged for a closer look

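In 65 genes and 130 groups of 4 libraries, 9 had 1 library far from the other three by Dixon's criterion, where chance gives about 1 in 20 groups. Among the 9 genes, 3 of 18 groups had one, each time KO replicate 1. Acsm3 was 77.06 scaled FPKM there, against 28.16 to 34.69 in the other KO libraries. Slco1a1 was 98.53, against 59.28 to 65.15 in the other KO libraries. Slc22a30 was 90.64, against 70.65 to 72.26. Without KO replicate 1 their log2 fold changes were 0.90, 1.45 and 0.32.

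Dohh also stood out in KO replicate 1, at 22.92 (other KO libraries 26.13 to 26.17). KO replicate 3 had 3 high values, Lcn2 at 4.067 (0.3525 to 0.6439), the macrophage lysozyme gene Lyz2 at 75.77 (35.04 to 39.08) and the fat marker Cfd at 1.124 (0.1968 to 0.2718). The endothelial gene Ehd3 was 18.48 in KO replicate 4 (15.78 to 16.19), and Pvalb, a marker of the distal convoluted tubule, was 29.94 in WT replicate 3 (35.03 to 35.81 in the other WT libraries).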

How the results depend on the processing

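Each of the 9 genes was fitted under 14 alternatives, and all 126 log2 fold changes were above 0 and none was called. The smallest was 0.19 (Kap, quantile normalization), and the lowest adjusted p was 0.0781 (Slco1a1 without WT replicate 3). The median over the 9 genes lay between 0.42 (without WT replicate 3) and 0.74 (without WT replicate 4). Leaving out 1 library gave 5 to 16 called genes, against 7 with all libraries and 8 with voom, the 16 being without WT replicate 3; the cause was not tested. The median correlation between the genes was 0.879 to 0.946 with 1 library left out and 0.819 on deviations from the genotype means, where by construction the genotype difference is removed. The planned edgeR, DESeq2 and TMM alternatives were not run, since the deposited values are FPKM; voom on the recovered reads took their place. No paired analysis was possible because the labels give the animals of the groups no shared numbers. The lowest value of the 9 genes in a library rested on 297 reads.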
